A study of Homo sapiens with 4 samples.

Results

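The MHC class II genes and CIITA were followed as 10 genes out of the 46427 listed, taken by gene symbol. They were CIITA, the class II transactivator, CD74, the invariant chain, the classical chains HLA-DRA, HLA-DRB1, HLA-DPA1, HLA-DPB1, HLA-DQA1 and HLA-DQB1, and the peptide exchange chains HLA-DMA and HLA-DMB. The cells were SNU638, an established line from a human gastric cancer, and their messenger RNA was sequenced. Control cells carried a control vector, YTHDF1‐overexpressed cells carried a vector for YTHDF1, a reader of m6A-modified RNA, and each group had 2 libraries labelled as biological replicates 1 and 2. All 4 libraries came from cells held without serum for 24 h and then given IFN‐γ at 10 ng/ml, for 8 h by the sample labels and 24 h by the study's figure legends. No untreated cells were measured, so induction by IFN‐γ cannot be read from these values. Nothing in the sources used here says what a replicate number stands for, such as a day, a passage or a batch, and p-values measure only the spread between these libraries.

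MHC class II molecules carry peptides from endocytosed proteins to the cell surface, where CD4+ T cells read them. Professional antigen-presenting cells express them constitutively, whereas epithelial cells, gastric cancer cells included, can acquire them under IFN‐γ. IFN‐γ acts through JAK kinases, and IRF1 is among the factors that then drive CIITA, a co-activator that binds no DNA itself but is recruited by factors sitting on conserved boxes upstream of the class II genes, of CD74 and of the HLA-DM genes.

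Matches to letters of those boxes are shown for the member promoters, because the boxes are the feature through which CIITA is known to reach these genes. RefSeq promoter windows of GRCh38.p14, 250 bases before to 50 bases after each start, were matched for 8 of the 10 members, and HLA-DRA and CIITA had no entry. Capitals mark AGNNAC, letters found in the X box, and a following ATTGG or its reverse complement CCAAT, the letters of the Y box. The first base of the Y box letters lies 20 to 50 bases after the first base of AGNNAC. Each stretch is written 5′ to 3′ on the gene's strand.
CD74, chr5:150412953-150412997, minus strand: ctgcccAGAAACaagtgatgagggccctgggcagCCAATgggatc
HLA-DRB1, chr6:32589884-32589933, minus strand: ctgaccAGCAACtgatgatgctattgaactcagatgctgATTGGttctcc
HLA-DQA1, chr6:32637298-32637348, plus strand: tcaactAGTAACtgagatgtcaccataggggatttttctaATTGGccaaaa
HLA-DQB1, chr6:32666735-32666784, minus strand: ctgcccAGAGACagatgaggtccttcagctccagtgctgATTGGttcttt
HLA-DMB, chr6:32941040-32941100, minus strand: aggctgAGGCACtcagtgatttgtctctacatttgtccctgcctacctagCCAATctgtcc
HLA-DMA, chr6:32953166-32953216, minus strand: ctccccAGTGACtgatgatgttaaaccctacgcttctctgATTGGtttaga

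The pair was present on the gene strand in 6 of the 9 windows of these 8 members, against 4.6% of all 35116 windows. In the stretches above the motif starts were 28 to 34 bases apart, except in HLA-DMB, where they were 44 bases apart. The single motifs were common. On either strand, AGNNAC was in 86.5% of all windows, ATTGG in 34.6% and TGATG, letters of the X2 box that binds CREB, in 32.9%. TGATG occurred in 8 of the 9 member windows. Neither window of HLA-DPA1 nor that of HLA-DPB1 held the pair, which says only that these letters are not in these windows. The motifs were chosen after the promoters had been read, and a match is a description of the sequence, not a measured site.

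Library depth was even, with total counts from 57398137 to 60864942. YTHDF1 was at 82.2 and 80.3 CPM in the control libraries and at 16488.9 and 2627 CPM in YTHDF1 replicates 1 and 2, so the labels of the vectors held, and the YTHDF1 libraries differed widely in the level reached. CPM are counts relative to the library size after TMM scaling. The libraries stood apart by replicate number rather than by vector. Across genes, which are not independent replicates, Pearson's r of log2 CPM was 0.985 and 0.983 between the libraries sharing number 1 and number 2, against 0.885 between the control libraries and 0.889 between the YTHDF1 libraries. Epithelial marker mRNA summed to between 3916 and 6717 CPM, and 12 immune cell markers to between 1.56 and 3.78 CPM. The highest of them was ITGAM, at 1.98 and 1.30 CPM in control (replicates 1 and 2) and 1.31 and 0.762 CPM in YTHDF1 replicates 1 and 2. CD14 had from 15 to 41 counts. The leukocyte marker PTPRC had at most 11 counts, and MS4A1, CLEC9A and CD1C had 0 in every library.

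CIITA was expressed in every library and was about 2-fold higher in the libraries numbered 2. It stood at 48.7 and 95.9 CPM in control (replicates 1 and 2) and at 45.4 and 90.8 CPM in YTHDF1 replicates 1 and 2, from 2672 to 5486 counts. The libraries of number 2 lay above those of number 1 without overlap, whereas the vectors overlapped. The log2 fold change of number 2 against number 1 was 0.99 (standard error 0.05, edgeR adjusted p = 1.04e-06, where the quasi-likelihood test ran over 17781 genes with Benjamini-Hochberg adjustment). CIITA lies at chr16:10866206-10943021 (GRCh38.p14).

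CD74, the chaperone that occupies the peptide groove of new class II molecules, had the largest log2 fold change between the numbers among the 9 tested members. Its levels were 26.9 and 107.6 CPM in the control libraries and 25.6 and 100.9 CPM in the YTHDF1 libraries, again in the order of replicates 1 and 2. Both libraries of number 2 were about 4 times as high as both of number 1, and within a number the vectors lay close together. The log2 fold change was 1.99 (standard error 0.05, edgeR adjusted p = 1.82e-08). CD74 lies at chr5:150401639-150412910.

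**Figure D1:**
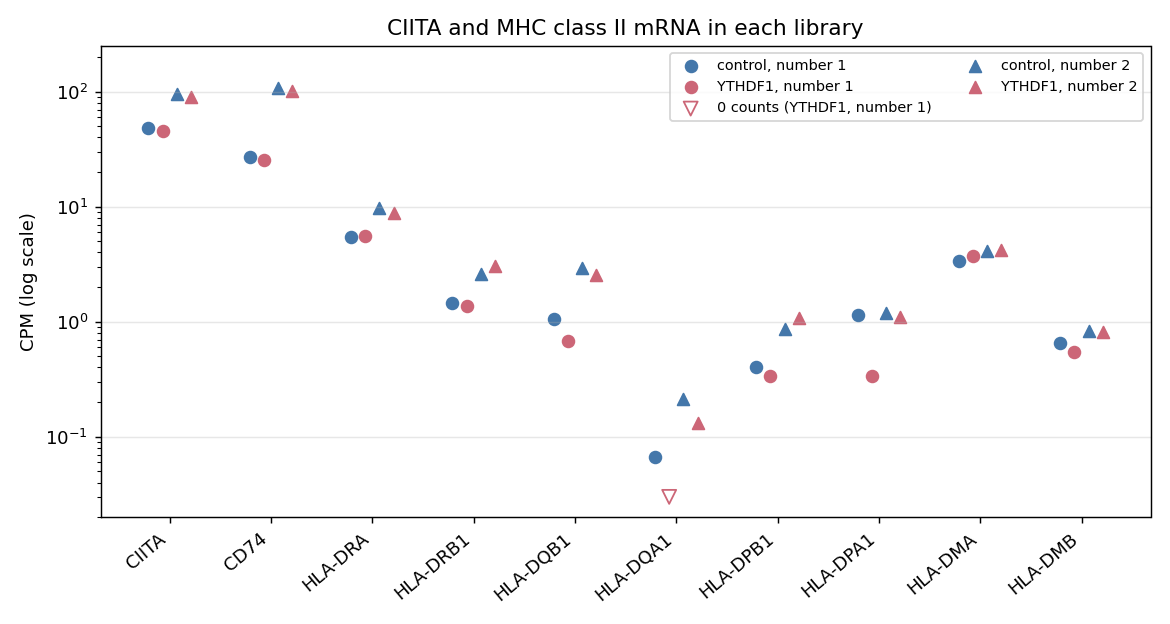
CPM of each member (log axis) in each of the 4 libraries, with circles for number 1, triangles for number 2, blue for control and red for YTHDF1, and 1 point per library. CD74 ran from 25.6 to 107.6 CPM and CIITA from 45.4 to 95.9 CPM, with the triangles above the circles, and the open triangle at the foot marks the 0 count of HLA-DQA1 in YTHDF1 replicate 1, drawn off scale.

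The DR chains, which form the most abundant class II molecule of most antigen-presenting cells, moved the same way, by less than CD74. HLA-DRA, the nearly invariant alpha chain, was at 5.45 and 9.75 CPM in control (replicates 1 and 2) and at 5.59 and 8.86 CPM in YTHDF1 replicates 1 and 2. Its log2 fold change between the numbers was 0.75 (standard error 0.11, edgeR adjusted p = 0.000522). HLA-DRB1, the polymorphic beta chain, had 1.46, 2.59, 1.38 and 3.08 CPM in the same order, with a log2 fold change of 1.00 (standard error 0.19, edgeR adjusted p = 0.00248). For both genes the libraries numbered 2 were higher and did not overlap those numbered 1. HLA-DRB1 is uncertain in its level because 8.64% of the 50-base windows of its transcript also occur in HLA-DRB5 and 2.29% in HLA-DRB6.

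Of the DQ chains, which are both polymorphic, only the beta chain was tested. HLA-DQB1, the beta chain, had 1.06 and 2.96 CPM in control and 0.679 and 2.57 CPM with YTHDF1, with a log2 fold change of 1.67 between the numbers (standard error 0.25, edgeR adjusted p = 0.000578). HLA-DQA1, the alpha chain, was close to the limit of detection, with 4 and 12 counts in the control libraries and 0 and 8 in YTHDF1 replicates 1 and 2. The count of 0 allows up to 3 counts, and HLA-DQA1 did not pass the filter on low counts, so it was not tested and no fold is given. HLA-DQA1 shares 9.53% of its windows with HLA-DQA2 and HLA-DQB1 shares 4.85% with HLA-DQB2. Floors and intervals given here reflect counting error alone, because the reads carry no molecular identifiers and several may come from 1 molecule.

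The DP chains form the remaining classical molecule. HLA-DPB1, the beta chain, had 24 and 49 counts in control and 20 and 65 in YTHDF1‐overexpressed cells, which is 0.404, 0.864, 0.340 and 1.08 CPM. It was higher in number 2 without overlap (log2 fold change 1.38, standard error 0.32, edgeR adjusted p = 0.00608). HLA-DPA1, the alpha chain, had 68, 68 and 66 counts in control replicates 1 and 2 and YTHDF1 replicate 2, and 20 counts in YTHDF1 replicate 1. The exact 95% Poisson interval of the low library was 12.2 to 30.9 counts, below the 51.0 to 84.0 counts of the other YTHDF1 library. HLA-DPA1 therefore overlapped between the numbers, and its log2 fold change of 0.62 (standard error 0.46) had an edgeR adjusted p of 0.289. That value rests on single libraries, since it was 0.0043 without YTHDF1 replicate 1 and 1.75 without control replicate 1 (edgeR adjusted p = 0.00605), where the remaining lone library is assumed to vary like the others. HLA-DPB1 missed the threshold without YTHDF1 replicate 2, with an edgeR adjusted p of 0.0546. Both genes overlap on opposite strands over 4759 bases of chromosome 6, and the strand setting of the counting is not given in the sources used here, so whether reads in that stretch were told apart is unknown.

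The HLA-DM chains form the exchange factor that releases the invariant chain peptide, and neither passed the test. HLA-DMA was at 3.40 and 4.09 CPM in control and 3.72 and 4.24 CPM in YTHDF1‐overexpressed cells, and HLA-DMB at 0.656, 0.828, 0.543 and 0.811 CPM in the same order. The log2 fold changes between the numbers were 0.23 (standard error 0.15) and 0.45 (standard error 0.29), with edgeR adjusted p of 0.222 and 0.229. The libraries numbered 2 were still the higher ones for both genes.

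Counted over the group, 6 of the 9 tested members were higher in number 2 at an adjusted p under 0.05 and a log2 fold change of at least 0.5, and 0 were lower, also at unadjusted p. Among all genes tested, 9.96% were higher and 16.2% were lower by the same rule, so the numbers differed across a large part of the transcriptome and the median log2 fold change of all genes was -0.01 against 0.99 for the members. Libraries numbered 2 lay above those numbered 1 without overlap in 8 of the 9 tested members, against 36.8% of all genes tested. The same was seen in 10 of 12 tested genes of class I presentation, so it was not particular to the members. In these bulk libraries, more cells that express class II genes and more RNA per cell cannot be told apart.

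The members did not move by 1 common factor. The ratio of CD74 to CIITA counts within a library was 0.552 and 1.12 in the control libraries and 0.565 and 1.11 in YTHDF1 replicates 1 and 2. CD74 to HLA-DRA went from 4.93 to 11.0 in control and from 4.59 to 11.4 in YTHDF1‐overexpressed cells. HLA-DRA to CIITA ran only from 0.0975 to 0.123 over the 4 libraries, and HLA-DMA to CIITA was 0.0698 and 0.0426 in control and 0.0820 and 0.0467 with YTHDF1. In either vector the ratio to CIITA was thus higher in number 2 for CD74, slightly lower for HLA-DRA and lower for HLA-DMA, and these ratios were not tested. CD74 made up 30.1% and 30.7% of the summed member counts in the libraries of number 1 and 47.6% and 47.2% in those of number 2, while the 8 HLA genes together had 13.6 and 12.6 CPM in number 1 and 22.5 and 21.9 CPM in number 2.

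**Figure D2:**
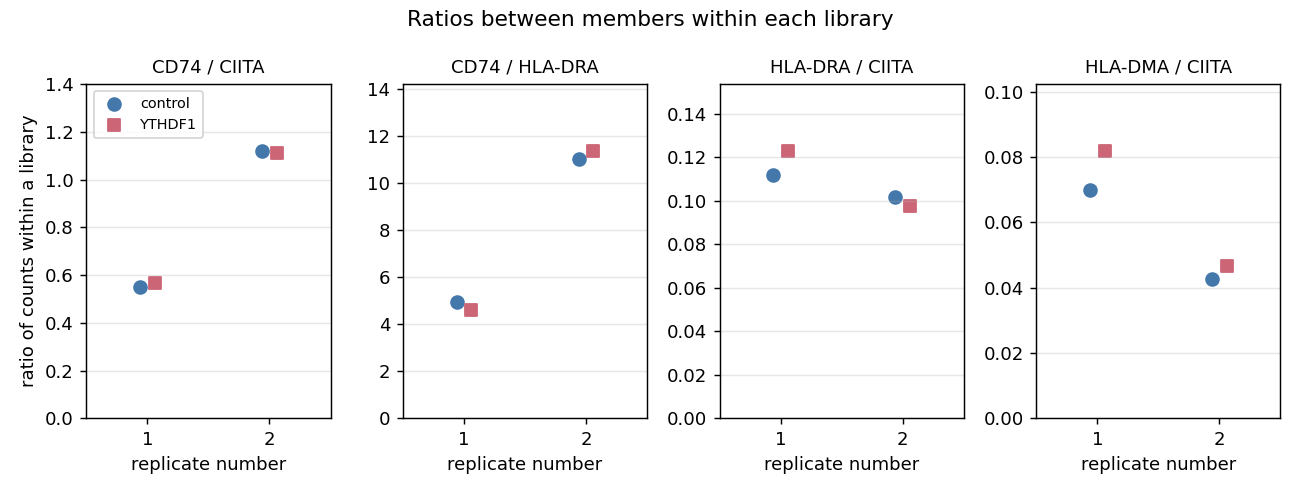
Ratio of the counts of 2 members within each library, against the replicate number, with circles for control and squares for YTHDF1. CD74 to CIITA lay at 0.552 and 0.565 in number 1 and at 1.12 and 1.11 in number 2, while HLA-DRA to CIITA stayed between 0.0975 and 0.123.

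Levels of different genes were compared per kb, as CPM divided by the median length of the GENCODE release 29 transcripts paired with a RefSeq accession of the gene. CD74 was highest, at 22.5 to 94.5 CPM per kb over the libraries, followed by CIITA at 9.74 to 20.6, HLA-DRA at 4.26 to 7.62 and HLA-DMA at 3.02 to 3.77. The ranges of these neighbours did not overlap. HLA-DRB1 followed at 1.12 to 2.51 CPM per kb and HLA-DQB1 at 0.412 to 1.80, with overlapping ranges. HLA-DPA1, HLA-DPB1 and HLA-DMB lay between 0.199 and 0.703 CPM per kb. Their ranges overlapped each other and that of HLA-DQB1, so they could not be ranked among themselves or against it. HLA-DQA1 was lowest at 0 to 0.133. The place of CIITA depends on the transcript assumed, since its paired transcripts run from 2344 to 16059 bases, and with the longest its mean log2 ratio to HLA-DRA was -0.44 in place of 1.35. B2M, the light chain of class I molecules, was far above all of them at 1419 to 2050 CPM per kb.

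The comparison the study was designed for is that of the vectors, made to ask how YTHDF1 alters the response to IFN‐γ. With every library treated, it compares levels under IFN‐γ and not the change that IFN‐γ brings. Of the 9 tested members, 0 were called in YTHDF1‐overexpressed cells against control, either at an adjusted p or at an unadjusted p under 0.05 in edgeR's quasi-likelihood test, in DESeq2's Wald test or in limma-voom. Among all genes, 0.101% reached an unadjusted p under 0.05 and a log2 fold change of 0.5 or more in size, and 0% passed with an adjusted p (0 genes in edgeR, with 24 at an unadjusted p under 0.05, 3 in DESeq2 and 0 in limma-voom). YTHDF1 itself, with a log2 fold change of 6.88, had an adjusted p of 1.00 in edgeR, so in this fit, where the numbers add to the spread, a miss does not show that a gene was unaltered. The log2 fold change was -0.09 for CIITA (standard error 0.52), -0.09 for CD74 (standard error 1.01) and -0.07 for HLA-DRA (standard error 0.44). It ran from -0.71 for HLA-DPA1 to 0.16 for HLA-DPB1, with a median of -0.09 against 0.00 for all genes, and every member had an adjusted p of 1.00.

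Because libraries with the same number resembled each other, the vector difference was also read within each number, where it is a difference of log2 CPM between 2 libraries with no test. For CIITA it was -0.10 within number 1 and -0.08 within number 2, and for CD74 it was -0.07 and -0.09. For HLA-DRA it was 0.04 and -0.14, and for HLA-DRB1 it was -0.09 and 0.25. These values are small beside the difference between the numbers, and the sign turned for the DR chains. HLA-DPB1 turned sign as well, at -0.24 and 0.31, whereas HLA-DQB1 was lower with YTHDF1 in both numbers, at -0.63 and -0.21. HLA-DMA was slightly higher, at 0.13 and 0.05, and HLA-DMB slightly lower, at -0.27 and -0.03. In 7 of the 10 members the difference stayed under 0.5 in size within both numbers. HLA-DPA1 was the exception among the tested members in its extent, at -1.73 within number 1 and -0.13 within number 2. It was also the 1 tested member whose vectors did not overlap, against 11.5% of all genes tested, and its unadjusted p in edgeR was 0.368.

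**Figure D3:**
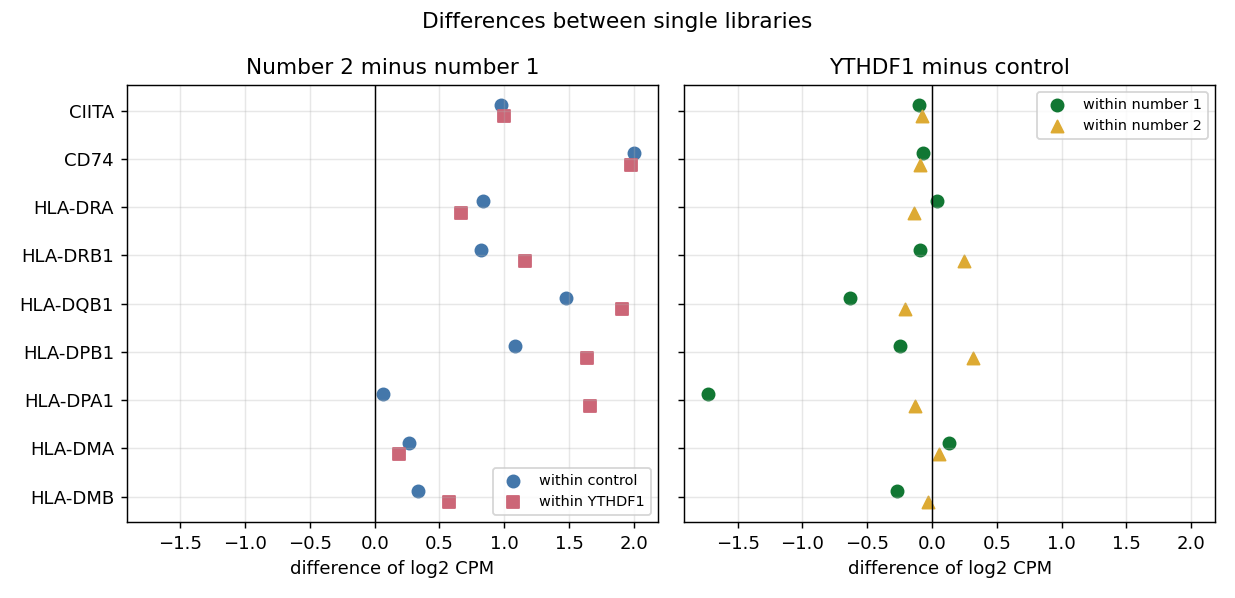
Differences of log2 CPM between single libraries for the 9 tested members, on the left number 2 minus number 1 within control (circles) and within YTHDF1 (squares), on the right YTHDF1 minus control within number 1 (circles) and number 2 (triangles). On the left all points are above 0 and reach 2.00 for CD74, and on the right most lie near 0, with HLA-DPA1 at -1.73 within number 1.

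The remaining class II genes are expressed little in this line. HLA-DOA, a chain of HLA-DO, the inhibitor of HLA-DM, had 19 and 47 counts in control and 22 and 45 in YTHDF1‐overexpressed cells. It was the 1 of 3 tested genes of this list that passed, with a log2 fold change of 1.18 between the numbers (edgeR adjusted p = 0.0164). HLA-DOB, its partner, had 41 and 48 counts in control and 14 and 35 with YTHDF1, and HLA-DRB5 had 16, 24, 9 and 11. Neither passed in either comparison, and the 3 genes had log2 fold changes of -0.04, -0.91 and -1.04 between the vectors for HLA-DOA, HLA-DOB and HLA-DRB5. HLA-DQA2, HLA-DPB2 and HLA-DQB1-AS1 had 0 counts in every library.

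The genes that lead from IFN‐γ to CIITA include its receptor chains, kinases and the factors at the CIITA promoter. Of the 12 genes of this list reported here 2 were higher in number 2 and 0 were lower, at an edgeR adjusted p under 0.05 and a log2 fold change of at least 0.5. They were JAK2, the receptor kinase (0.63), and PRDM1, a repressor of CIITA (0.80), and with 9.96% of all genes higher a count of 2 is near the background. IRF1, the factor that binds the IFN‐γ-responsive CIITA promoter, was at 812.7 and 1043.9 CPM in control and 831.9 and 1077.3 CPM with YTHDF1. For IRF1 the log2 fold change was 0.37 between the numbers (edgeR adjusted p = 0.000215) and 0.04 between the vectors. IRF2 and SMARCA4, a chromatin remodelling ATPase, stood at 0.44 and 0.43 between the numbers and JAK1, the partner kinase of JAK2, at -0.40, all under the fold asked for. With YTHDF1, 0 of the 12 genes had an unadjusted p under 0.05 in edgeR, and the smallest p belonged to IFNGR2, EZH2, PRDM1 and IFNGR1, with log2 fold changes of 0.07, 0.06, 0.21 and -0.05.

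The factors that assemble on the class II promoters had a median log2 fold change of 0.12 between the numbers, with 7 of 12 tested genes above 0. By the call rule 0 were higher in number 2 (0 also at unadjusted p in edgeR with the same fold) and 2 were lower, near the 9.96% and 16.2% of all genes, EP300, a histone acetyltransferase (-0.79), and NFYB, a subunit of the Y box factor NF-Y (-0.58). RFX5, the subunit of the X box complex RFX, was at 122.2 and 149.7 CPM in control and 119.7 and 150.9 CPM with YTHDF1, a log2 fold change of 0.31 between the numbers. CREB1 stood at 0.29. Between the vectors 0 of the 12 had an unadjusted p under 0.05, and KAT2B (-0.21), NFYB (0.11), NFYA (0.04) and CARM1 (0.03) had the smallest.

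Genes that process the invariant chain and turn class II molecules over had a median log2 fold change of 0.02 between the numbers. CTSS, the main invariant chain protease of antigen-presenting cells, was at 3.11 and 5.45 CPM in control and at 2.16 and 5.56 CPM with YTHDF1 (log2 fold change 1.06, edgeR adjusted p = 0.00142). It was the 1 higher gene among 15 tested, and 4 were lower, namely the tetraspanins CD9 (-1.01) and CD82 (-1.01) and the cathepsins CTSL (-0.66) and CTSB (-0.53). These counts are close to the shares of all genes, 9.96% higher and 16.2% lower. Between the vectors 0 of the 15 had an unadjusted p under 0.05, with CTSV (0.13), SPPL2A (0.08), MARCHF8 (-0.05) and CANX (0.07) nearest.

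The class I pathway, which IFN‐γ also induces, was read through 12 tested genes. Of these 3 were higher in number 2, PSMB8, an immunoproteasome subunit (1.14), HLA-F (0.68) and B2M (0.51), beside 9.96% of all genes. In 10 of the 12 the libraries numbered 2 lay above those numbered 1 without overlap, beside 36.8% of all genes. The median log2 fold change of the 12 was 0.22. HLA-C, a class I heavy chain, was at -0.38, and NLRC5, the class I counterpart of CIITA, was at 149.8 and 163.5 CPM in control and 152.9 and 165.3 CPM with YTHDF1, a log2 fold change of 0.12. In the vector comparison 0 of the 12 had an unadjusted p under 0.05, and PSMB10, PSMB9, HLA-E and NLRC5 had the smallest, all under 0.06 in size of the log2 fold change.

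**Figure D4:**
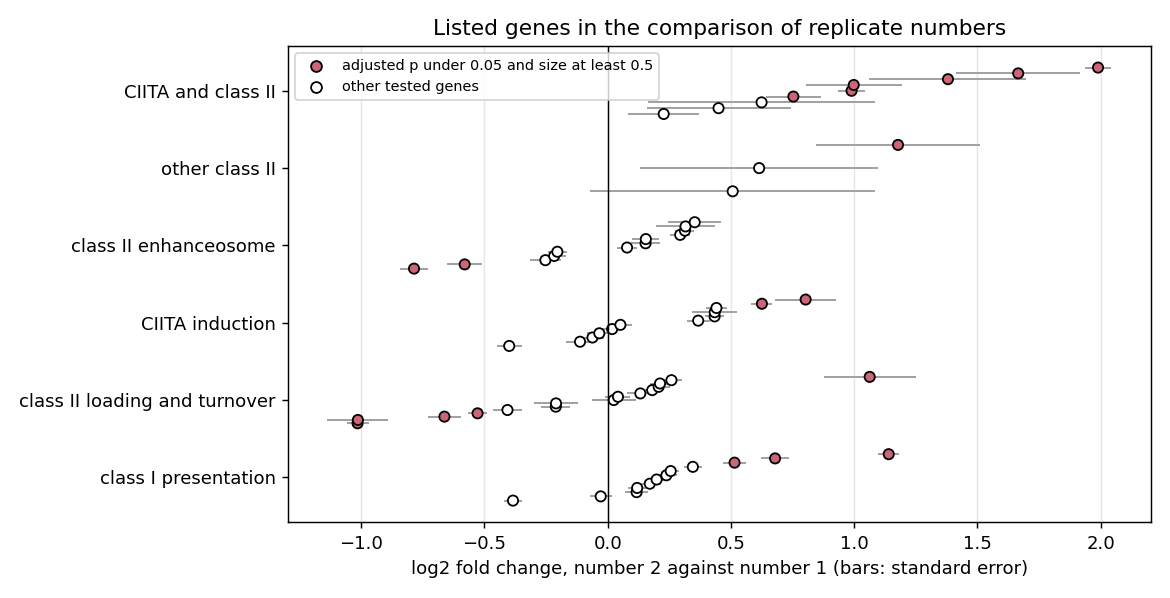
Log2 fold change of number 2 against number 1 for each tested gene of 6 lists, with bars for the standard error and filled points for genes with an adjusted p under 0.05 and a size of at least 0.5. The 9 tested members run from 0.23 to 1.99, all above 0, while the factors that assemble on the promoters reach -0.79 and the tetraspanins CD9 and CD82 lie at -1.01.

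Co-stimulatory genes and receptors of class II covered a wide range of levels. CD40, a co-stimulatory receptor, had 1539 and 1590 counts in the libraries of number 1 and 0 and 6 in those of number 2, in control and YTHDF1 respectively, while CD80, CD86 and CD4 had at most 2 counts anywhere. ICOSLG, a co-stimulatory ligand at 9.29 to 12.1 CPM (-0.34), and LAG3, a class II receptor (0.55, edgeR adjusted p = 0.151), were the other tested genes, and between the vectors CD40, ICOSLG and LAG3 stood at 0.07, 0.05 and 0.17. Of the 6 tested immune cell markers 0 were higher in number 2 and 1 was lower, beside 9.96% and 16.2% of all genes tested. The lower one was ITGAX, with 13 and 12 counts in number 1 and 0 in both libraries of number 2. It passed the filter on low counts only through number 1, so it could only be called lower. CD14, ITGAM and CD79A, markers of monocytes, myeloid cells and B cells, stood at -0.95, -0.68 and -0.60, with edgeR adjusted p from 0.105 to 0.377. Between the vectors CSF1R, SPI1, ITGAM and CD79A had the smallest p of this list, with log2 fold changes of -1.08, -0.81, -0.67 and -0.65, and 0 of the 6 had an unadjusted p under 0.05 in edgeR. Epithelial markers moved in either direction between the numbers. KRT18 (1.01) and KRT8 (0.79) were higher, CDH1 (-0.58) was lower, and CLDN4, a tight junction claudin, went from 55.0 and 56.6 CPM in number 1 to 0.934 and 0.993 CPM in number 2 (log2 fold change -5.85). Some marker values thus differed between the replicate numbers, in either direction, and their part in the class II result was not tested. Between the vectors EPCAM (0.05), KRT19 (-0.01), CDH1 (-0.02) and KRT8 (0.02) had the smallest p among the epithelial markers.

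Among genes outside these lists, those nearest to the profile of CD74 over the 4 libraries, by Euclidean distance of centred log2 CPM, were DAW1, GBP5, HEXA-AS1, DCLK1 and PMEPA1. DAW1, the nearest, was only at 0.153 to 0.705 CPM, and HEXA-AS1 at 0.0673 to 0.300 CPM, both low. GBP5, an interferon-inducible guanylate-binding protein, was at 82.5 and 334.7 CPM in control and 84.0 and 332.2 CPM with YTHDF1, beside the 26.9, 107.6, 25.6 and 100.9 CPM of CD74. Nearest to CIITA were ZNF836, C4B, LOC648987, ZNF20 and NNT-AS1, and ZNF836 went from 4.27 to 8.39 CPM in control and from 3.97 to 8.05 CPM with YTHDF1. Nearest to HLA-DRA were AAMDC, STAG3L2, SPAG4, ZNF789 and LOC101928095, and AAMDC had 8.74, 15.5, 8.95 and 14.2 CPM in the order used above. With 4 libraries such nearness is a description of these values.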

How the data were processed

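A stranded mRNA kit was used on RNA of the SNU638 cells. The authors deposited counts, whole numbers of reads per gene without normalization, in 1 table of 46427 genes and 4 libraries, of which 20072 genes were at 0 throughout. The submitters' processing notes name Trimmomatic, HISAT2 and GRCh38, while the counting tool, its strand setting and the annotation release are not given in the sources used here. HLA genes are highly polymorphic, and how well reads of this line's alleles match the reference was not tested.

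The tests were run with edgeR 4.0.16 and, for voom, limma 3.58.1 under R 4.3.3. The filter filterByExpr kept 17781 genes, HLA-DQA1 not among them, and libraries were scaled by TMM and compared by the quasi-likelihood test with Benjamini-Hochberg adjustment, YTHDF1 against control and number 2 against number 1. A gene was called when p was under 0.05, adjusted or not as stated, and the log2 fold change reached 0.5 in size. The standard error was taken as the absolute log2 fold change divided by the square root of F. Differences between single libraries used log2 CPM with a prior count of 0.5. Depth was 57398137 to 60864942 counts per library.

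The members, the gene lists and the rule for naming genes were chosen with earlier results of these data known. The rule named all members, YTHDF1, IRF1, RFX5, NLRC5 and B2M, the up to 4 genes of each list with the smallest p per comparison, list genes past the unadjusted threshold where 6 or fewer, and the 5 nearest profiles of CIITA, HLA-DRA and CD74. Alternatives were DESeq2 1.42.0 size factors and Wald test, limma-voom, other filters on low counts, YTHDF1 left out of the library size, near-identical HLA copies summed, a block for the replicate number or the vector, and each library left out. The lengths behind levels per kb and the promoter motifs were chosen after the data had been seen. Some genes of the lists are not reported here and are left out of the list counts. The fits were also run on simulated data, which for the vector comparison held no difference between the replicate numbers. That run therefore does not show how the vector fit performs on these libraries. Plots used matplotlib 3.10.9 in Python 3.11.15.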

Additional observations from a re-analysis of the deposited data

How the results depend on the processing

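The count of 6 tested members higher in number 2 held under every setting run on all 4 libraries. Over these settings the 4659 genes called between the numbers ran from 3599 to 4712. The count of members higher in number 2 changed when YTHDF1 replicate 2 or control replicate 1 was left out. The count of 0 members called between the vectors held under every setting run. Over all genes, the 18 called between the vectors at an unadjusted p became 82 without a filter on low counts and 47 to 60 with 1 library left out, and the 0 at an adjusted p became 3 with DESeq2's Wald test.

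Deviations from the group means correlated at 0.875 within each replicate number, a value that is the same for both by construction with 2 libraries a group, and only 2 pairs could be formed. With the number as a replicate block, 192 genes were called at an unadjusted and 8 at an adjusted p, 0 of them members. HLA-DPA1 was then at -0.85 (unadjusted p = 0.0597 from edgeR), CIITA at -0.09 (0.0949) and CD74 at -0.08 (0.136).

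With 1 library left out, the vectors hold unequal numbers, and the log2 fold change between the vectors ran from -0.68 to 0.48 for CIITA, -1.40 to 1.24 for CD74, -0.45 to 0.41 for HLA-DRA, -0.57 to 0.61 for HLA-DRB1, -1.57 to 0.62 for HLA-DQB1, -0.90 to 0.81 for HLA-DPB1, -0.039 to 0.23 for HLA-DMA, -0.46 to 0.13 for HLA-DMB and -1.79 to -0.10 for HLA-DPA1, with edgeR adjusted p of 1.00 throughout. With near-identical HLA copies summed, HLA-DRB1 was at -0.022 between the vectors. The mean log2 ratio of CIITA to HLA-DRA per kb, 1.35 with the median transcript length, was 2.34 with the shortest and -0.44 with the longest transcripts, an alternative chosen after the data had been seen. A group of 2 libraries, low counts of the DP, DQ and HLA-DMB genes and a count of 0 that allows up to 3 limit what can be told for those members.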

Other observations

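Some rows related to the class II genes had reads in 1 library and 0 in the others. The pseudogene HLA-DRB6 had 7 counts in control replicate 1 and 0 in the other 3 libraries, and HLA-DQB2, a paralog of HLA-DQB1, had 17 counts in YTHDF1 replicate 1 and 0 in the other 3. In the same library HLA-DQA1 was at 0, HLA-DPA1 at 20 and HLA-DQB1 at 40 counts. This library was the lowest of the 4 in raw counts for 8 of the 10 members, and the share among all genes was not counted. In either vector all 10 members were lower in number 1 than in number 2 by CPM, and that share among all genes was not counted either. For HLA-DPA1 in control this came from the scaling alone, since both libraries had 68 counts. YTHDF1 replicate 1 minus control replicate 1 was only -0.10 log2 CPM for CIITA and -0.07 for CD74.

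The ratio of HLA-DPB1 to HLA-DPA1 counts was 0.353 and 0.721 in the control libraries and 1.00 and 0.985 in YTHDF1 replicates 1 and 2. HLA-DMB to HLA-DMA counts ran from 0.146 to 0.203 and HLA-DRB1 to HLA-DRA counts from 0.246 to 0.348. The lowest DP ratio was that of control replicate 1, with 24 counts of HLA-DPB1 and 68 of HLA-DPA1, where YTHDF1 replicate 1 had 20 of each. The other 3 libraries ran from 0.721 to 1.00.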
